A study of Mus musculus with 4 samples.

Results

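The genes described here are 41 genes of the muscles that form in the lower jaw, from the factors of their progenitor cells to the proteins of the contractile fibre, out of 16637 genes named on the arrays. They were taken from a list of branchiomeric muscle regulators and sarcomere genes, and each gene was read by its brightest probe, the one with the highest mean over all 4 arrays. All 41 had at least 1 probe; 9 had several, and the 41 genes had 56 probes in all. Total RNA of whole mandibles of C57BL/6 mouse embryos at E11.5 was hybridised to one-colour Cy5 arrays. The 2 control arrays came from wild-type embryos and the 2 others from embryos with conditional Bmp4 overexpression, in which Bmp4, a secreted bone morphogenetic protein, was induced with doxycycline for 24 hours. The driver of the transgene, the number of embryos behind each array and whether the controls received doxycycline are not given in the sources used, so effects of Bmp4, of the drug and of the genotype cannot be told apart. Arrays of 1 group are not stated to come from separate embryos, so the spread that the p-values use may be purely technical.

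The muscles of the jaw are branchiomeric: they arise from cranial mesoderm that enters the pharyngeal arches, whereas the skeleton and connective tissue around them come from neural crest. Tcf21 and Msc mark the arch progenitors, after which the basic helix-loop-helix factors Myf5 and Myod1 commit cells to muscle and Myog drives their differentiation. Differentiated cells then build the sarcomere, in which myosin pulls on actin and the troponin complex makes that pull depend on calcium, and assemble the channels and acetylcholine receptors that link nerve impulses to contraction.

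Several contractile genes rose in the Bmp4 overexpression mandibles, by 1.38-fold to 2.53-fold. Of the 41 genes, 8 rose, 0 fell and 33 did not pass at an adjusted p of 0.05 (limma, adjusted over all probes); at an unadjusted p of 0.05, 19 were higher and 3 lower. Across all named genes 7.39% rose and 9.54% fell at the adjusted threshold, against 19.5% and 0% of the muscle genes, and 17.6% were higher and 18.8% lower at the unadjusted level. None of the 9 progenitor factors and myogenic regulators passed. The share that rose and the share that fell over all genes would each give less than 1 of 9. Control means of 5 of the 9 lay below the lower quartile of all probes. The difference from the contractile genes was not tested. The median log2 fold change was 0.23 over the muscle genes and 0 over all named genes, and 78% of the muscle genes had a fold change above 0, against 49.9% of all. All 8 genes that rose encode sarcomere proteins or the filament that ties sarcomeres together: Tnnt1, Tnni2, Tnnc1, Tnnc2, Myl4, Actc1, Ttn and Des. The median log2 fold change was 0.01 in the 9 progenitor factors and regulators and 0.29 in the 32 contractile and coupling genes. The list was chosen with earlier results of these data known, so these counts describe the genes and are no test of the list.

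**Figure D1:**
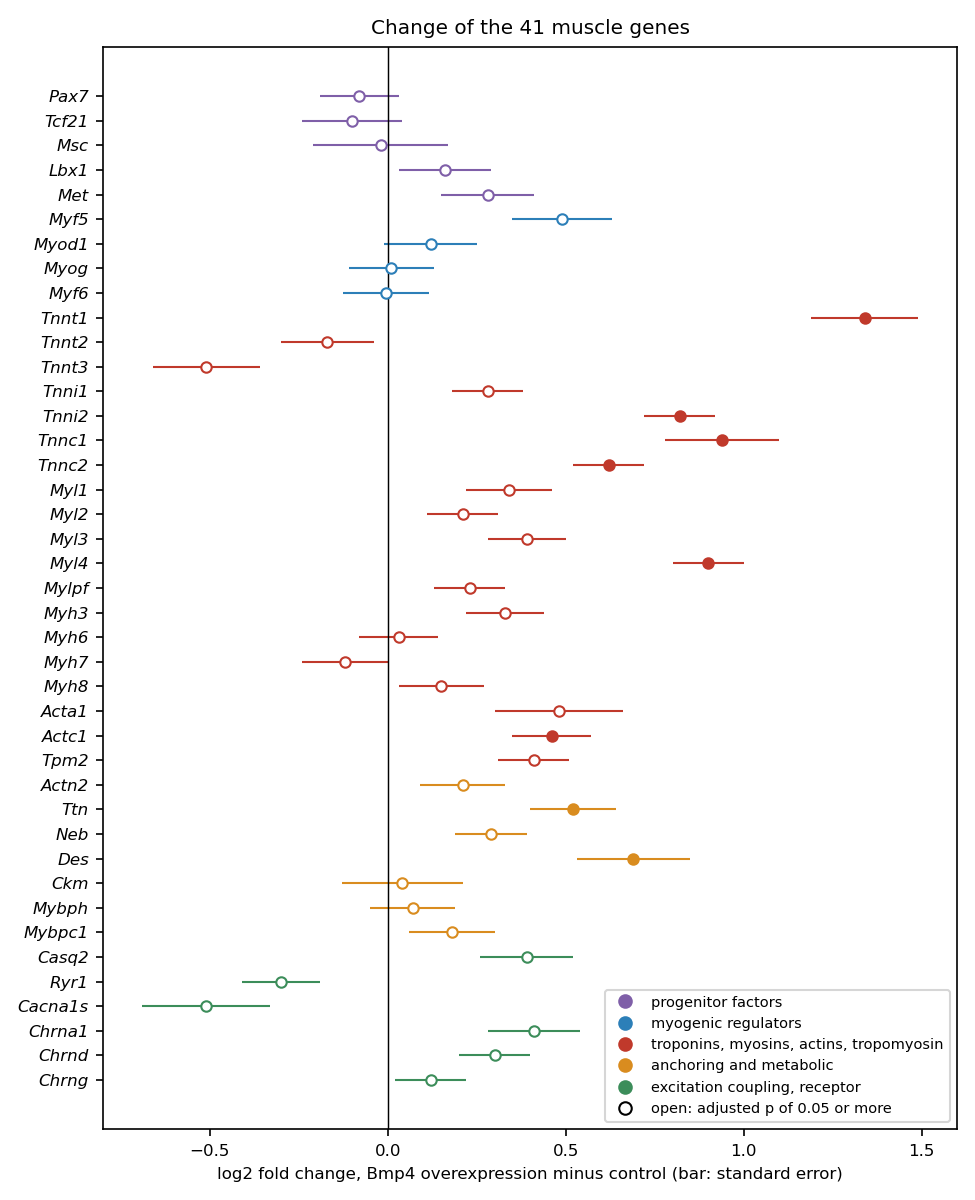
Log2 fold change (Bmp4 overexpression minus control, x axis) of the brightest probe of each of the 41 muscle genes, with standard errors from limma as bars; colours mark the stage and filled points the 8 genes with an adjusted p under 0.05. Tnnt1 lies farthest to the right at 1.34, and Tnnt3 and Cacna1s, both open, lie farthest to the left at -0.51.

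The calls rest on all 4 arrays. Leaving out any 1 array left 1 residual degree of freedom, and none of the 8 genes then passed in limma. Of the 41 genes, 29 to 34 had a log2 fold change above 0 in these fits, against 32 in the fit of all 4 arrays. In each of the 8 genes that rose, both overexpression arrays lay above both controls. Leaving out 1 array could therefore not turn their sign, and only the size could change, between 0.39 and 1.53 (log2 fold change). As a check of the labels, Bmp4 itself read 11.96 and 12.07 in the controls and 15.27 and 15.31 in the overexpression arrays.

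Among the progenitor factors, 0 of 5 passed in limma. None had an unadjusted p under 0.05, a level at which 17.6% of all named genes were higher and 18.8% lower. Tcf21, a basic helix-loop-helix factor of arch muscle progenitors, read 6.45 and 6.10 in controls and 6.15 and 6.19 in overexpression samples (normalised log2 intensity). Pax7, which marks the progenitors and later the satellite cells of muscle, read 6.47 and 6.35 in controls and 6.34 and 6.32 in overexpression samples. Both genes lay below 6.79, the lower quartile of all probes, in every array, where a fall has little room. The 95% confidence intervals of their log2 fold changes were -0.47 to 0.26 for Tcf21 and -0.34 to 0.18 for Pax7. Msc, which encodes musculin and acts beside Tcf21, read 8.97 and 8.67 in controls and 8.58 and 9.02 in overexpression samples. The groups overlapped, and the log2 fold change of Msc was -0.02 (95% confidence interval -0.49 to 0.45). Lbx1 and Met, a homeobox factor and the hepatocyte growth factor receptor that serve the migration of muscle precursors, did not pass, at 0.16 ± 0.13 and 0.28 ± 0.13 (log2 fold change, SE). Both overexpression arrays of Met lay above both controls, which held for 31% of all named genes.

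The myogenic regulators gave 0 of 4 past the adjusted threshold in limma and 1, Myf5, higher at an unadjusted p under 0.05. At that level 17.6% of all named genes were higher and 18.8% lower. Myod1, the factor that commits cells to muscle, read 8.15 and 7.95 in controls and 8.08 and 8.27 in overexpression samples. Its groups overlapped, and its log2 fold change was 0.12 (95% confidence interval -0.20 to 0.45). Myog, the factor that turns committed cells into fibres, read 9.05 and 8.90 in controls and 8.89 and 9.09 in overexpression samples, with a log2 fold change of 0.01 (95% confidence interval -0.29 to 0.32). For these 2 genes the intervals therefore reach no higher than 0.45, and a rise as large as that of Tnnt1 lies outside both. Myf5, the earliest of the regulators, read 6.31 and 6.57 in controls and 7.04 and 6.82 in overexpression samples. Both overexpression arrays of Myf5 were above both controls, but the control values lay below the lower quartile, and the log2 fold change of 0.49 ± 0.14 (SE) did not pass (limma, adjusted p = 0.0751). Myf6, also known as Mrf4 and a late regulator, read 6.70 and 6.56 in controls and 6.55 and 6.70 in overexpression samples, below the lower quartile in both groups.

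**Figure D2:**
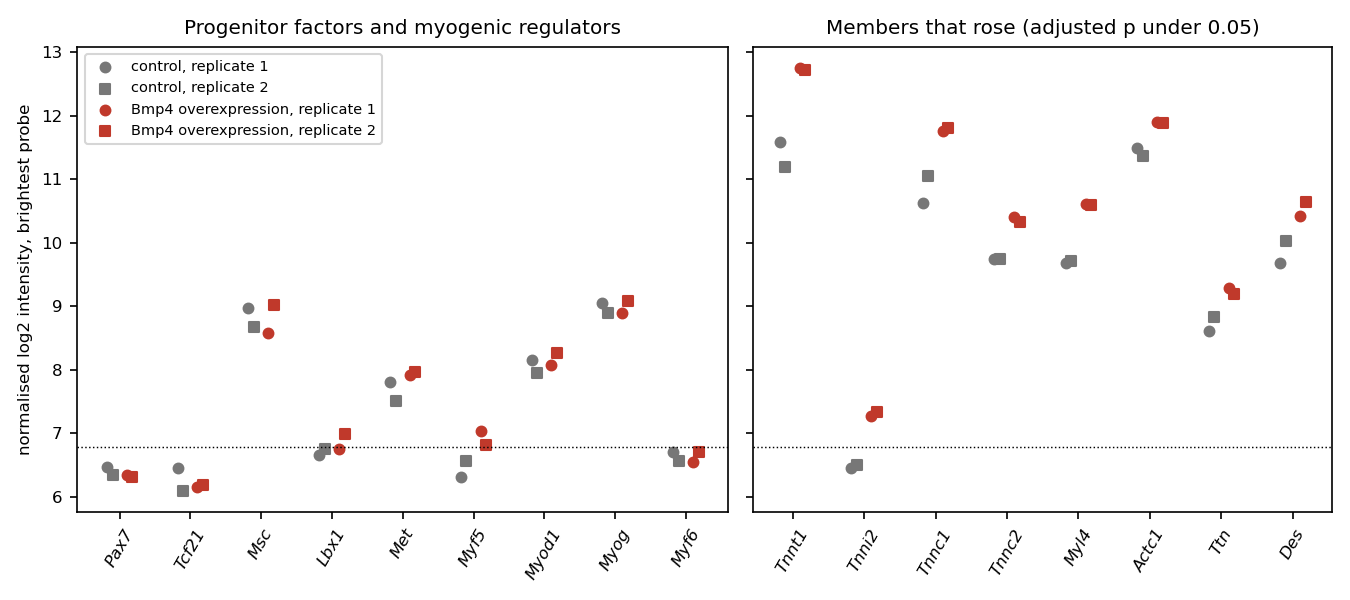
Normalised log2 intensity of the brightest probe on each of the 4 arrays (grey: control, red: Bmp4 overexpression; circles replicate 1, squares replicate 2) for the 9 progenitor factors and regulators (left) and the 8 genes that rose (right); the dotted line is the lower quartile of all probes, 6.79. Myod1 and Myog overlap between groups. In every gene on the right both overexpression arrays lie above both controls, which follows largely from choosing genes that rose and is no contrast between the panels.

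The troponin genes held the largest changes. Troponin consists of a tropomyosin-binding subunit (T), an inhibitory subunit (I) and a calcium-binding subunit (C), each made in slow, fast or cardiac forms. Tnnt1, slow skeletal troponin T, read 11.59 and 11.20 in controls and 12.75 and 12.72 in overexpression samples. All overexpression values were above the controls, and Tnnt1 rose 2.53-fold (log2 fold change 1.34 ± 0.15, SE; limma, adjusted p = 0.00998). It was 96th of 16637 named genes when ordered by rise, and the 1 muscle gene of the 41 past the study's own criterion of a 2-fold difference with p under 0.05 (read here as the unadjusted p), which 1.56% of named genes passed upwards and 1.76% downwards. Tnnc1, troponin C of slow and cardiac muscle, read 10.63 and 11.05 in controls and 11.76 and 11.80 in overexpression samples. The controls of Tnnc1 differed by more than its overexpression arrays did, and it rose 1.92-fold (log2 fold change 0.94 ± 0.16, SE; limma, adjusted p = 0.0231). The slow inhibitory subunit Tnni1 read 7.50 and 7.55 in controls and 7.81 and 7.79 in overexpression samples, which did not overlap, and its log2 fold change of 0.28 did not pass (limma, adjusted p = 0.124).

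Of the fast troponins, Tnni2 and Tnnc2 rose and Tnnt3 did not. Tnni2, the fast inhibitory subunit, read 6.46 and 6.51 in controls and 7.27 and 7.34 in overexpression samples, a 1.77-fold rise from below the lower quartile (limma, adjusted p = 0.0119). Tnnc2, fast troponin C, read 9.74 on both control arrays and 10.40 and 10.33 on the overexpression arrays, a 1.54-fold rise (limma, adjusted p = 0.0206). Tnnt3, fast troponin T, went the other way without passing: it read 8.07 and 7.98 in controls and 7.70 and 7.33 in overexpression samples, or -0.51 ± 0.15 (log2 fold change, SE; limma, adjusted p = 0.0785). The troponins that rose were of slow and of fast type. Cardiac troponin T, Tnnt2, was dim, with group means of 6.76 and 6.60 that are both below the lower quartile.

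The sequences before the start sites of these genes are shown because several of the genes rose together and because E-boxes are the sites that Myod1 and Myog bind. The 250 bases upstream of the RefSeq start (GRCm38.p6) were read for 33 of the 41 genes. Msc, Lbx1, Myod1, Myf6, Tnnt3, Tnni2, Neb and Chrnd had no entry. Each sequence runs 5′ to 3′ on the gene's strand up to the base before the start. Capitals mark E-boxes (CANNTG), the MEF2 box (YTAWWWWTAR) and the CArG box (CCWWWWWWGG), searched on both strands. Here Y is C or T, W is A or T and R is A or G. Sites that depart from these forms by any base are not marked. Tnnt1 (chr7:4515976-4516225, minus strand), Tnnc1 (chr14:31208062-31208311, plus strand), Des (chr1:75360042-75360291, plus strand), Actc1 (chr2:114052876-114053125, minus strand) and Ttn (chr2:76982548-76982797, minus strand) rose, and Myog (chr1:134289754-134290003, plus strand) is set beside them.
Tnnt1: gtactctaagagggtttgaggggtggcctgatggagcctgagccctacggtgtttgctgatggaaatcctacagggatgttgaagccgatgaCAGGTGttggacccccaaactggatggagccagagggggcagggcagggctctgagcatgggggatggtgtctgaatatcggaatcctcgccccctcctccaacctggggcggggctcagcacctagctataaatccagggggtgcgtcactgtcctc
Tnnc1: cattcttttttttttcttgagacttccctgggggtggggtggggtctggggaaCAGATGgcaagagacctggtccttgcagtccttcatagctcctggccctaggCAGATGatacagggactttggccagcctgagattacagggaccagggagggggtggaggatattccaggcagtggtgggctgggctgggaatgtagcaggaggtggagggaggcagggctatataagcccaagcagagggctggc
Des: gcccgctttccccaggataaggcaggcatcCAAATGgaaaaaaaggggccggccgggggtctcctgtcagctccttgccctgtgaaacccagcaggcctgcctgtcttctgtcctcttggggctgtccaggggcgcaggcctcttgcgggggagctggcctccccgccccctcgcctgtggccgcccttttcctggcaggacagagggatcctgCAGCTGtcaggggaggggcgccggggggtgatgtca
Actc1: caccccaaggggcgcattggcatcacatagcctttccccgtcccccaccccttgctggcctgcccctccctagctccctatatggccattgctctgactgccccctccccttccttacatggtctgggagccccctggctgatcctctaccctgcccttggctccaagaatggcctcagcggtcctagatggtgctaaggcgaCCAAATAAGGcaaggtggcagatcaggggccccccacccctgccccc
Ttn: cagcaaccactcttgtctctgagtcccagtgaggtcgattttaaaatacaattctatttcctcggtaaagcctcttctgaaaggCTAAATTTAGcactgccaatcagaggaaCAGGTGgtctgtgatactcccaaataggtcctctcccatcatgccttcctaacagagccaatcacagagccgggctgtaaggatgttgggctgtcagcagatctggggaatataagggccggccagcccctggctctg
Myog: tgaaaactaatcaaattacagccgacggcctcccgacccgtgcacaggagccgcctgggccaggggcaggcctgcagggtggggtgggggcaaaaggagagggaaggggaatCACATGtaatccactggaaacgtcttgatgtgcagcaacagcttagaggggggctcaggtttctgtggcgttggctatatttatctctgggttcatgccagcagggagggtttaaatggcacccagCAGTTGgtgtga

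Tnnt1 held 1 E-box in this window, Tnnc1 2, Des 2, Myog 2 and Ttn 1, and Actc1 held none but had 1 CArG box, the element bound by serum response factor. Ttn also held 1 MEF2 box of the searched form. Myog holds ctatatttat, which departs from that form at its last base only and so was not counted. Over the 37 windows of the 33 genes, 83.8% held an E-box, against 66.2% of all 32851 promoter windows of this length. The form CAGCTG, which is contained in CANNTG, was present in 40.5% of the windows of the muscle genes and in 13% of all. Among the 7 windows of genes that rose, 1 (that of Des) held CAGCTG, against 14 of the 30 windows of muscle genes that did not pass. These 30 windows belong to 26 genes, and the Tnni1 windows overlap and hold the same CAGCTG, so windows are not independent. The MEF2 box was present in 3 of the 37 windows and the CArG box in 3, or 8.11% each, against 2.92% and 1.47% of all windows. GGCGCC, a GC-rich element of BMP-responsive promoters, was present in 2 windows, those of Des and Met, or 5.41%, against 9.59% of all. A match describes the letters only and shows no binding.

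The myosin genes were mostly higher by small amounts, and 1 of them rose. Myl4, the light chain of embryonic and atrial muscle, read 9.69 and 9.72 in controls and 10.61 and 10.59 in overexpression samples. The arrays of each group lay within 0.03 of each other, and Myl4 rose 1.86-fold (log2 fold change 0.90 ± 0.10, SE; limma, adjusted p = 0.00949). Myl3 and Myl2, light chains of slow and ventricular muscle, differed by 0.39 and 0.21 on the log2 scale, and the fast-fibre light chains Myl1 and Mylpf by 0.34 and 0.23. None of these 4 passed. In all 4 both overexpression arrays lay above both controls, as in 31% of all named genes. Myh3, the embryonic heavy chain, read 10.94 and 11.01 in controls and 11.23 and 11.37 in overexpression samples, or 0.33 ± 0.11 (log2 fold change, SE; limma, adjusted p = 0.104). The perinatal heavy chain Myh8 overlapped between groups at its brightest probe, at 0.15 on the log2 scale. The slow heavy chain Myh7 gave -0.12, and the atrial heavy chain Myh6 was below the lower quartile in controls and overexpression samples alike.

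Of the thin filament genes, Actc1 rose. This alpha-actin of the heart is also the main sarcomeric actin of embryonic skeletal muscle, and it read 11.43 ± 0.10 in controls and 11.89 ± 0.01 in overexpression samples (mean ± SD, n = 2 each), with no overlap and a 1.38-fold rise (limma, adjusted p = 0.0460). Acta1, the alpha-actin of mature skeletal muscle, read 6.82 and 7.32 in controls and 7.54 and 7.57 in overexpression samples. Its controls differed by more than its overexpression samples exceeded the higher of them, and its log2 fold change of 0.48 did not pass (limma, adjusted p = 0.128). Tpm2, beta-tropomyosin, read 12.12 and 12.03 in controls and 12.48 and 12.50 in overexpression samples. Its log2 fold change of 0.41 ± 0.10 (SE) lay just outside the threshold (limma, adjusted p = 0.0523), and it passed after removal of the probes below the lower quartile (adjusted p = 0.0482) and under 4 other settings, with adjusted p-values down to 0.0242. The sarcomeric actins are nearly identical in sequence, as are many myosin heavy chains, and probes that read such relatives cannot be told apart from the table.

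Of the 7 anchoring and metabolic genes, 2 rose, 0 fell and 5 did not pass in limma; at an unadjusted p of 0.05, 3 were higher and 0 lower, against the 17.6% and 18.8% of all named genes. Des, desmin, the intermediate filament that links myofibrils at their Z-discs, read 9.68 and 10.03 in controls and 10.43 and 10.65 in overexpression samples, a 1.61-fold rise (limma, adjusted p = 0.0447). Ttn, titin, the spring that spans the half-sarcomere, read 8.61 and 8.84 in controls and 9.29 and 9.19 in overexpression samples, a 1.43-fold rise close to the threshold (limma, adjusted p = 0.0490). With a variance trend in the fit Ttn did not pass (adjusted p = 0.0582). Neb, the thin-filament ruler nebulin, differed by 0.29 on the log2 scale and Actn2, the Z-disc alpha-actinin, by 0.21, and the myosin-binding proteins Mybpc1 and Mybph by 0.18 and 0.07. Ckm, muscle creatine kinase, had group means under the lower quartile.

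Of the 6 genes of excitation coupling and of the neuromuscular receptor, 0 passed the adjusted threshold in limma. At an unadjusted p of 0.05, 3 were higher and 2 lower, against 17.6% and 18.8% of all named genes. Ryr1 and Cacna1s read lower on both overexpression arrays, without passing. Ryr1, the calcium release channel of the sarcoplasmic reticulum, read 8.38 and 8.41 in controls and 8.01 and 8.17 in overexpression samples, and Cacna1s, the voltage sensor that opens it, read 7.11 and 6.68 in controls and 6.27 and 6.51 in overexpression samples. Their log2 fold changes were -0.30 and -0.51, and the overexpression mean of Cacna1s lay below the lower quartile. The calcium store protein gene Casq2 was higher in both overexpression arrays than in either control, at 0.39 on the log2 scale. The receptor subunit genes Chrna1, Chrnd and Chrng, the last of which marks the fetal receptor, differed by 0.41, 0.30 and 0.12 on the log2 scale. Chrng read 9.48 and 9.56 in controls and 9.67 and 9.61 in overexpression samples.

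Over all 41 genes, 25 had both overexpression values above both controls, 4 had them below and 12 overlapped. The same held for 31% and 32.3% of all named genes, so the share lying higher was above the background and the share lying lower was below it. The 4 lower genes were Pax7, Tnnt3, Ryr1 and Cacna1s. Set against the control mean of each gene, the median muscle gene stood at 0.26 and 0.27 on the 2 overexpression arrays (log2 difference) and at 0 on both control arrays. For the 4 regulators the corresponding medians were -0.03 and 0.17, against 0.07 and -0.07 on the control arrays. The control medians mirror each other because the mean of the same 2 arrays was subtracted, so they are no separate baseline.

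Genes with several probes did not always move together across their probes. Of the 9 such genes, 2 (Actc1 and Ttn) had risen by their brightest probe, and neither had a second-brightest probe that passed. The log2 fold change was -0.09 at the second Actc1 probe and 0.24 at the second Ttn probe; the other 4 Ttn probes lay between -0.29 and 0.18. Averaged over all probes, Actc1 and Ttn gave 0.19 and 0.13 on the log2 scale and neither passed (limma, adjusted p = 0.247 and 0.391). Myh8 showed the opposite order: its second probe read 9.14 and 9.39 in controls and 10.21 and 9.84 in overexpression samples, and passed at 0.76 ± 0.17 (log2 fold change, SE; limma, adjusted p = 0.0394). The second probes of Chrna1, Chrnd and Chrng gave -0.24, -0.10 and -0.19 on the log2 scale, opposite in sign to the brightest. The other 6 genes that rose had 1 probe each and so no such check.

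**Figure D3:**
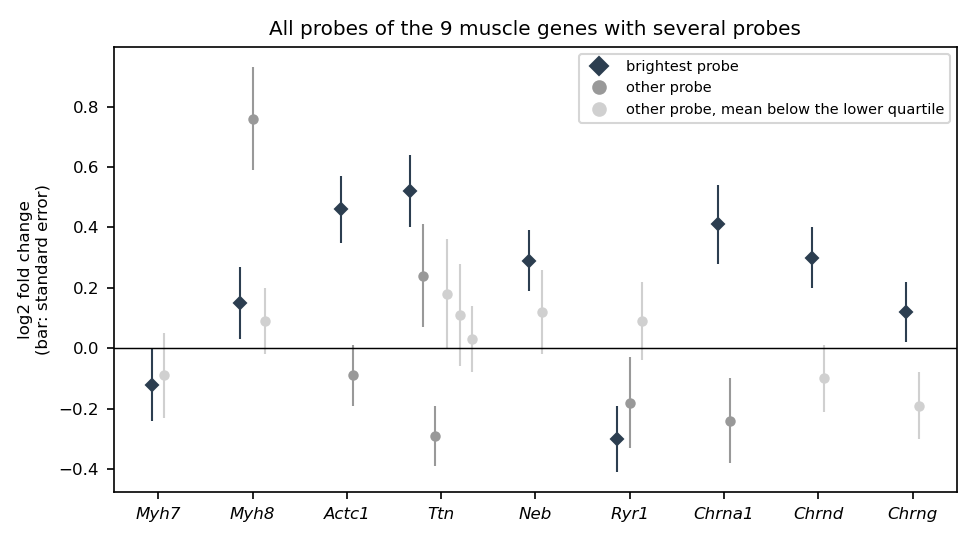
Log2 fold change with standard error (y axis) of every probe of the 9 muscle genes with several probes; dark diamonds are the brightest probe of a gene, grey circles the others, pale circles those with a mean below the lower quartile. The brightest probes of Actc1 and Ttn lie at 0.46 and 0.52 and their second probes at -0.09 and 0.24, whereas for Myh8 the second probe, at 0.76, lies above the brightest.

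A further 70 genes of the muscle programme, listed from general knowledge, gave a mixed picture. Of the 64 measured, 9 rose, 6 fell and 49 did not pass (limma), or 14.1% and 9.38%, against 7.39% and 9.54% of all named genes. Their median log2 fold change was 0.12. Isl1, a LIM-homeodomain factor of the second heart field, cranial mesoderm and several neurons, among other tissues, rose 7.89-fold. Which cells of the whole mandible this rise came from was not tested. Tbx1, a T-box factor needed for branchiomeric muscle, missed the threshold at 0.36 on the log2 scale (limma, adjusted p = 0.121). Eya1 fell, at -0.42 on the log2 scale (limma, adjusted p = 0.0477), and Six4 and Vgll2 were lower, at -0.28 and -0.40, without passing. Mef2c, a partner of the myogenic factors, read 11.21 and 11.38 in controls and 12.02 and 12.17 in overexpression samples and rose 1.74-fold. Its relative Mef2d fell, at -0.43 on the log2 scale (limma, adjusted p = 0.0447), and Mef2a and Mef2b, at 0.36 and 0.10, did not pass. Smyd1, a methyltransferase needed for myosin assembly, read 8.06 and 8.03 in controls and 8.92 and 9.20 in overexpression samples and rose 2.02-fold. The muscle forms of 2 glycolytic enzymes rose, Pgam2 1.78-fold and Eno3 1.57-fold, as did Hes6, a helix-loop-helix gene that promotes differentiation, 1.54-fold. Smyd1 and Eno3 had 2 probes each and were read by the brighter. With the mean of all probes, 7 of the 64 further genes rose and 6 fell. Of the 6 genes that fell, 4 besides Eya1 and Mef2d are named by size. Atp2a2, the calcium pump of slow muscle, heart and many other cells, gave -0.77 on the log2 scale and the tropomyosin gene Tpm3 gave -0.76. Srl, sarcalumenin, a calcium-binding protein of the sarcoplasmic reticulum, gave -0.65, and the small heat shock protein gene Hspb2 gave -0.64.

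Markers of other cell types moved alongside, among them those of smooth and cardiac muscle. Of 10 smooth muscle markers, 5 rose (Acta2, Tagln, Cnn1, Actg2 and Myocd), 1 fell (Smtn) and 4 did not pass (limma), with a median log2 fold change of 0.64. Acta2, smooth muscle alpha-actin, read 11.46 and 11.43 in controls and 12.40 and 12.32 in overexpression samples. Summed on the linear scale, these 10 markers gave 6471 to 6549 intensity units in controls and 9676 to 10440 in overexpression samples, and the 32 contractile and coupling genes gave 24036 to 24235 and 35604 to 35946. Des and Tpm2 are also made by smooth muscle, and the part of smooth muscle in the differences of the sarcomere genes was not tested. Of 11 measured cardiac markers, 2 rose, 0 fell and 9 did not pass, with summed intensities of 1744 to 1906 in controls and 2476 to 2527 in overexpression samples. The 2 that rose are the transcription factor genes Tbx20 and Tbx5, at 2.08 and 0.70 on the log2 scale. Of the 11, the 4 markers Myl7, Nkx2-5, Hcn4 and Sln had both group means under the lower quartile. The other 7 lay above it in at least 1 group. Outside muscle, the median log2 fold change was 0.31 over 9 endothelial markers (1 rose, 0 fell in limma) and 0.29 over 10 epithelial markers (4 rose, 2 fell). Over 7 markers of neurons and glia it was 0.26 (1 rose, 0 fell). These medians lay near the 0.29 of the contractile and coupling genes. The median was 0.003 over 10 jaw mesenchyme markers (2 rose, 2 fell) and -0.04 over 5 erythroid markers (0 rose, 1 fell). The marker of neurons and glia that rose was Isl1. The lists share genes: Isl1, Myocd, Tnni3 and Mybpc3 are also counted among the further muscle genes. Summed intensities were 10427 to 10511 in controls and 12576 to 12724 in overexpression samples for the endothelial markers. For the epithelial markers they were 40519 to 42397 and 34953 to 36530. Krt14, the brightest of these markers, and Krt5 fell, at -0.79 and -0.46 on the log2 scale. The 4 that rose were the keratin genes Krt8 and Krt18, at 1.23 and 1.20, and Cdh1 and Cldn6, at 0.92 and 0.62. The part of these cell types in the differences of the muscle genes was not tested. As for skeletal muscle itself, 22 of the 41 genes, Myog, Myod1, Myh3 and Chrng among them, had control means at or above the median intensity of 7.95, 9 lay between the lower quartile and the median, and 10, among them Myf5, Myf6, Pax7 and Ckm, lay below the lower quartile; no detection calls were used. In whole mandibles a larger share of muscle cells and more RNA per cell cannot be told apart.

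**Figure D4:**
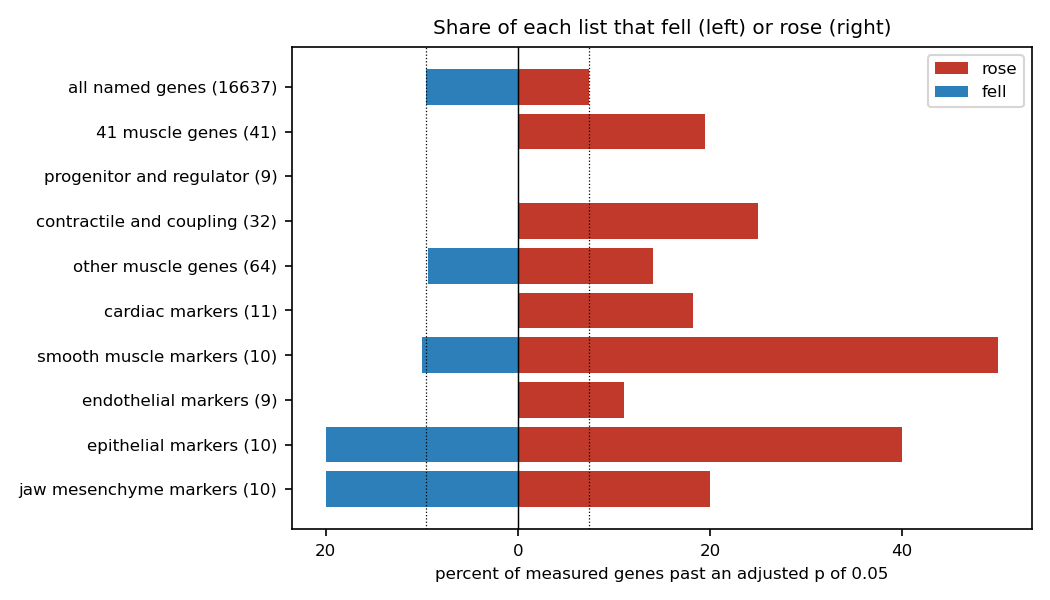
Percent of the measured genes of each list that fell (blue, left) or rose (red, right) at an adjusted p of 0.05 in limma, with the number of measured genes in brackets and dotted lines at the shares of all named genes, 9.54% and 7.39%. The contractile and coupling genes reach 25% on the right with none on the left, the progenitor and regulator genes have neither, and the smooth muscle markers reach 50%.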

How the data were processed

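The submitters deposited 1 table with 1 log2 intensity per probe and array, for 29922 probes on 4 arrays. All 4 columns hold the same set of values once sorted (largest difference 0), which shows that the authors had quantile-normalised the deposited log2 values. A shift of most genes therefore cannot be seen. Labelling was with aminoallyl RNA and Cy5, per the labels' protocols; nothing in the sources used here gives the scanner, background correction or software. Probes were named from the platform annotation, with 3410 old symbols updated through the GRCm38.p6 RefSeq gene table, which left 8902 probes unnamed.

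In R 4.3.3, limma 3.58.1 fitted each probe (lmFit, then eBayes without trend, two-sided, Benjamini-Hochberg over all probes, prior of 3.59 degrees of freedom), with 2 arrays per group and 2 residual degrees of freedom. The fit was tested on simulated data. An exact permutation test of 2 against 2 cannot go below p = 0.333. Errors are standard errors of the fit, and fold changes are on the log2 scale of the deposited values. The members and lists were chosen with earlier results of these data known. Values on all arrays are given for members that passed (for Actc1, mean and SD), for Myod1, Myog, Myf5, Myf6, Pax7, Tcf21 and Msc, for the brightest member of each stage and, chosen after their values were seen, for some others. Of the further muscle genes, the 10 with the largest change that passed are named, with Tbx1, Isl1 and Mef2c. Eya1, Six4, Vgll2, Mef2a, Mef2b and Mef2d were named after their values were seen, as were markers of other cell types. Alternatives were repeated normalisation, centring on medians, an offset of 50 added on the linear scale, filters on dim probes, a variance trend, the replicate number as a block, leaving out each array, other probes per gene and the threshold stated for the study.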

Additional observations from a re-analysis of the deposited data

How the results depend on the processing

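Repeating the quantile normalisation or centring each array on its median changed no call among the 41 genes. The count of 8 genes that rose was 0 with the replicate block and 0 to 0 over the fits without 1 array, as were the 9 and 6 calls among the further muscle genes and the 1912 rises and 2515 falls over all probes. These fits have 1 residual degree of freedom. With the replicate block the 8 genes had adjusted p-values of 0.0745 to 0.124, the lowest over all probes was 0.0745, and 18 of the 41 genes and 8724 probes had an unadjusted p under 0.05. Deviations of same-numbered arrays correlated over probes with r = -0.071, so the numbers are not taken to pair the arrays. At the threshold stated for the study, 1 muscle gene and 2 further muscle genes were higher, 0 of the further genes were lower, and 364 probes were higher and 422 lower. By second-brightest probes, 1 of 9 muscle genes and 1 of 14 further genes rose and 2 of these 14 fell; without probes below the median, 3 of 28 further genes fell.

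The median log2 fold change of 0.23 over the 41 genes was 0.21 with the linear value plus 50, 0.19 with the mean of all probes, 0.29 and 0.34 without probes below the lower quartile (32 genes left) or the median (23 left), and -0.09 over the 9 second-brightest probes; the cause of the last was not tested. Without 1 array it lay between 0.21 and 0.28, for the progenitor factors between -0.14 and 0.20, for troponins, myosins and actins between 0.28 and 0.40, and for the anchoring genes between 0.25 and 0.28. In the same order of settings, the troponins, myosins and actins gave 0.40 without probes below the median and -0.09 by second-brightest probes. The anchoring genes gave 0.29 and 0.36 under the 2 filters. The coupling genes gave 0.18 with the linear value plus 50, 0.03 with the mean of all probes, 0.30 and 0.26 under the filters and -0.18 by second-brightest probes. Signs turned without 1 array for 7 genes that had not passed, with log2 fold changes from -0.28 to 0.07 for Tcf21, -0.24 to 0.20 for Msc, -0.09 to 0.12 for Myog, -0.08 to 0.07 for Myf6, -0.07 to 0.12 for Myh6, -0.17 to 0.26 for Ckm and -0.03 to 0.17 for Mybph. By second-brightest probes they turned for Actc1 (-0.09), Chrna1 (-0.24), Chrnd (-0.10) and Chrng (-0.19), and Chrng gave -0.04 with the mean of all probes. No detection calls were used, and values below the lower quartile of 6.79 limit what could be seen.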
